A study of Mus musculus with 71 samples.

Results

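Piriform cortex and frontal cortex were compared in sham-treated mice by bulk RNA sequencing of mixed brain tissue. Libraries were chosen by the treatment field Sham and by the tissue field, which gave 5 piriform libraries and 8 frontal libraries, 13 of the 71 libraries in the series. All mice were C57BL/6J. The sham procedure was shaving of the back under isoflurane, with buprenorphine given under the skin and paracetamol added to the drinking water afterwards, which the burned and excised mice of the series received too. The labels used here do not give the age or sex of the mice, the time of tissue collection, or whether a piriform and a frontal library share an animal. Piriform libraries all belong to batch 3, while 5 frontal libraries belong to batch 1 and 3 to batch 2, so that region and batch cannot be told apart. P-values measure only the spread between these libraries, which the labels do not say come from separate animals.

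The piriform cortex is the main cortical target of the olfactory bulb. It is a paleocortex with fewer layers than the neocortex, and its semilunar and pyramidal cells receive mitral and tufted cell axons through the lateral olfactory tract. The frontal cortex of the mouse is layered neocortex that lies directly behind the olfactory bulb and the anterior olfactory nucleus. Layer identity in the neocortex is marked by transcription factors such as Cux2 and Rorb in upper layers, and Fezf2 and Bcl11b in deep layers.

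Total counts were 46.8 to 67.5 M in the piriform libraries and 47.4 to 80.4 M in the frontal libraries. Levels are given as CPM, counts divided by the library size after TMM scaling, and libraries are numbered within each region. Several libraries stood apart in marker genes of neighbouring tissue. The summed level of 14 genes of the olfactory bulb and migrating neuroblasts was 81.5 to 114 CPM in the 5 piriform libraries. It was 162 CPM in frontal replicate 5, 172 CPM in frontal replicate 3 and 384 to 804 CPM in the other 6 frontal libraries. Genes of striatal projection neurons and the olfactory tubercle summed to 2640 CPM in piriform replicate 3, against 347 to 439 CPM in the other piriform libraries and 334 to 2490 CPM in the frontal ones. Hippocampal genes summed to 1090 CPM in piriform replicate 1, against 478 to 639 CPM in the other piriform libraries. Mitochondrially encoded protein genes took 3.24% of counts in piriform replicate 5, 7.54 to 9.42% in the other piriform libraries and 1.79 to 7.9% in the frontal libraries. The title of piriform replicate 2 names excision, and the titles of all 5 piriform libraries name the frontal cortex, whereas piriform cortex stands in the tissue field of all 5.

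**Figure D1:**
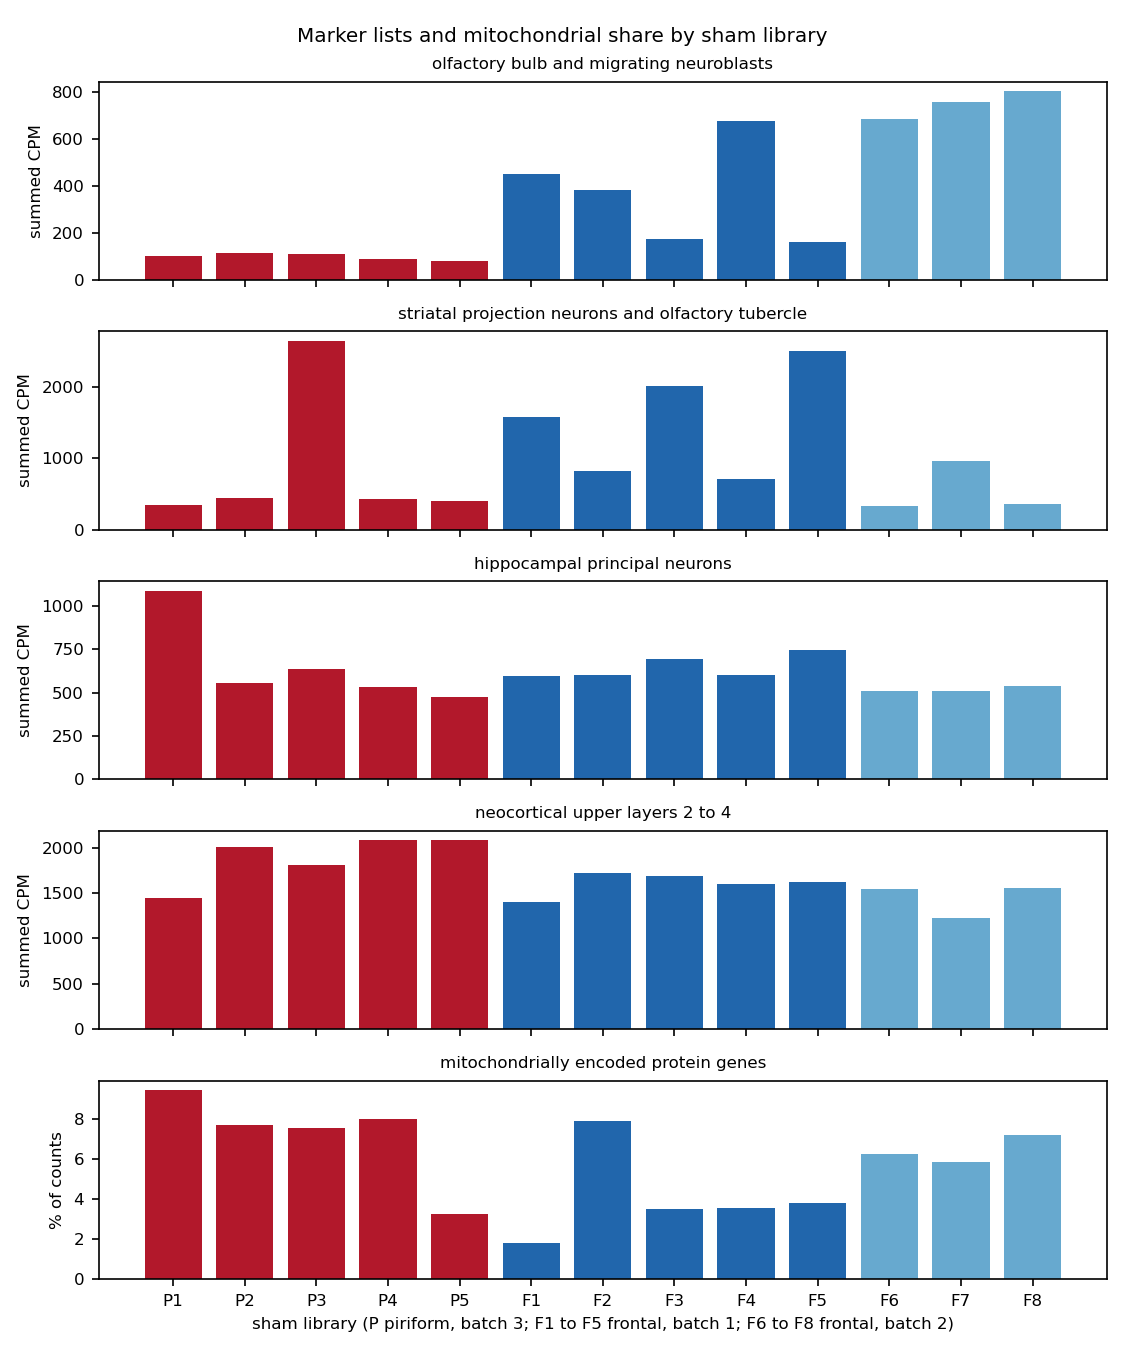
Summed CPM of 4 marker lists and the share of counts in mitochondrially encoded protein genes (% of counts), 1 bar per sham library, coloured by region and batch. Olfactory bulb genes were at 81.5 to 114 CPM in P1 to P5 and at 162 to 804 CPM in F1 to F8, hippocampal genes stood out in P1 and striatal genes in P3, F1, F3 and F5.

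The tissue label of the piriform libraries was not borne out by the list of piriform and lateral olfactory cortex genes. Of its 16 members, 1 was called higher in the piriform libraries and 4 were called lower, with a median log2 fold change of -0.41. Over all genes tested the median was -0.01, with 4.51% called higher and 4.28% lower. Against frontal replicates 3 and 5 alone, chosen after their levels were seen, 0 of the 16 were called (median -0.46), beside 17 of all 21139 genes. The summed level of the list was 425 to 758 CPM in the piriform libraries and 705 to 990 CPM in the frontal libraries. Genes shared with the anterior olfactory nucleus and bulb, such as Calb2 and Reln, are part of this list. So are Fezf2 and Bcl11b, which also mark deep neocortical layers. Both sets of libraries held the cortical glutamate transporter Slc17a7 at like levels, 1550 to 1890 CPM in the piriform libraries and 1240 to 1800 CPM in the frontal libraries. The names "piriform" and "frontal" below stand for these labels.

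In the sham libraries 927 of 20576 genes tested were called higher in the piriform libraries (4.51%) and 880 were called lower (4.28%), by edgeR's quasi-likelihood test at a Benjamini-Hochberg adjusted p under 0.05. Every piriform library lay above every frontal one in 402 genes (1.95%). At least 2-fold differences made up 283 of the higher genes (1.38%) and 391 of the lower genes (1.9%). Without piriform replicate 1, which held hippocampal transcripts, 821 genes were called higher and 812 lower, and 1325 genes were called with and without it. The count depended on which other libraries were left out, from 952 without piriform replicate 5 to 2360 without frontal replicate 1. Without piriform replicate 2, whose title names excision, 621 genes were higher and 572 lower.

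Both frontal batches were also set against the piriform libraries one at a time. Against batch 1, 422 genes were higher and 302 lower, and against batch 2, 601 were higher and 966 lower. Called genes were therefore higher in 58.3% of cases against batch 1 and in 38.4% against batch 2. The frontal batches differed from each other at no gene by edgeR's quasi-likelihood test (0 of 20867, or 0.0%), although 3127 genes had an unadjusted p under 0.05, and the DESeq2 Wald test called 318. Over all genes tested between the regions, the median absolute log2 fold change was 0.191 between regions and 0.216 between the frontal batches. Over the called genes, which were chosen for the first of these differences, it was 0.783 and 0.241.

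Most genes of the olfactory bulb list were lower in the piriform libraries. Of the 14 genes in the bulb and neuroblast list, 13 were called lower and 0 higher, beside 4.28% and 4.51% of all genes. The median log2 fold change of the list was -2.97. In 9 of the 14 genes every piriform library lay below every frontal library, which was the case for 2.05% of all genes tested. The member not called was Sox11, a transcription factor of young neurons (log2 fold change -0.12 ± 0.16 SE, adjusted p = 0.716). With frontal replicates 3 and 5 as the only frontal libraries, a choice made after their levels were seen, 3 of the 14 genes were called lower and the median was -1.41. The part of bulb tissue in these differences was not tested, and in bulk tissue fewer cells of a type and less RNA per cell cannot be told apart.

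Eomes (Tbr2) marks the mitral and tufted cells that project from the bulb to the piriform cortex. Its gene, ENSMUSG00000032446, lies on the plus strand of chromosome 9 at 118478212 to 118486132 in GRCm38. Its level in piriform replicates 1 to 5 was 0.145, 0.0941, 0.0555, 0.228 and 0.125 CPM, and it ran from 1.17 to 43.2 CPM in the frontal libraries with a median of 27.4 CPM. The 2 lowest frontal values, in replicates 3 and 5, were still above all piriform values. The log2 fold change was -7.5 ± 1.03 (SE, adjusted p = 0.00101), -7.56 without piriform replicate 1 and -3.67 against frontal replicates 3 and 5 alone. Tbx21, a T-box factor of the same projection neurons, was at 0.253, 0.0628, 0.148, 0.0759 and 0.583 CPM in the piriform libraries and at 0.61 to 12.2 CPM in the frontal libraries. For Tbx21, piriform replicate 5 and frontal replicate 5 nearly met. The rule that named both genes required groups without overlap, so their separation is no result.

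The bulb's local interneurons were represented by Th, Sp8 and Calb2. Th encodes tyrosine hydroxylase, the rate-limiting enzyme of dopamine synthesis and a marker of periglomerular cells. Piriform replicates 1 to 5 had 1.45, 1.29, 3.05, 1.46 and 1.98 CPM of Th, and the frontal libraries 8.31 to 90.0 CPM with a median of 64.0 CPM. The log2 fold change was -4.87 ± 0.67 (SE, adjusted p = 0.000945). Sp8, a zinc-finger factor of newborn bulb interneurons, was at 0.723, 1.29, 1.24, 0.455 and 0.666 CPM against 6.19 to 44.2 CPM (median 26.8 CPM). Its log2 fold change was -4.85 ± 0.6 (SE, adjusted p = 0.000429). Th and Sp8 were named by the same rule, so their lack of overlap is no result either. Calb2 encodes the calcium-binding protein calretinin, and was at 13.0, 10.9, 10.2, 8.67 and 6.0 CPM against 26.0 to 210 CPM (median 152 CPM). Its hippocampal level in sham mice was 24.4 to 73.9 CPM, so that the piriform values were also below those of all 9 hippocampal libraries.

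Ms4a15 had the largest estimated difference of the named genes. It is a member of the membrane-spanning Ms4a family on chromosome 19 (10978307 to 10993250, minus strand, ENSMUSG00000067571). It was read at 0 CPM in 4 piriform libraries and at 0.0157 CPM, a count of 1, in piriform replicate 2, against 1.37 to 37.7 CPM in the frontal libraries with a median of 26.1 CPM. Over the pooled libraries 1 count stood against 11586, a ratio per sequenced count of 6370 (95% exact interval 1140 to 252000, counting error only). Frontal replicates 3 and 5 gave the lowest frontal values, 2.45 and 1.37 CPM.

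The other genes with the largest lower values followed the same order of frontal libraries. Scgn, the calcium-binding protein secretagogin, was at 0.0379 to 1.05 CPM in the piriform libraries and 2.89 to 24.3 CPM in the frontal ones. Cdhr1, a protocadherin first described in mitral and tufted cells and photoreceptors, was at 0.875 to 11 CPM against 19.5 to 204 CPM. Frmd7, Vipr2 (a receptor for vasoactive intestinal peptide), Shisa3 and Doc2g had log2 fold changes of -5.68, -4.86, -4.31 and -4.05. Frontal replicates 3 and 5 had the lowest levels among the frontal libraries for each of these 6 genes. Igfbpl1, expressed in migrating neuroblasts, differed in this respect: its frontal range was 3.54 to 9.63 CPM, with 5.32 CPM in frontal replicate 3, against 0.0471 to 1.1 CPM in the piriform libraries. Of the regulators of interneuron birth, Dlx2 had a log2 difference of -2.61 ± 0.32 (SE, adjusted p = 0.000332), Dlx1 of -1.43 and Sp9 of -2.39. Dcx, a microtubule protein of migrating neurons, had a log2 difference of -1.62 ± 0.39 (SE, adjusted p = 0.0196).

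**Figure D2:**
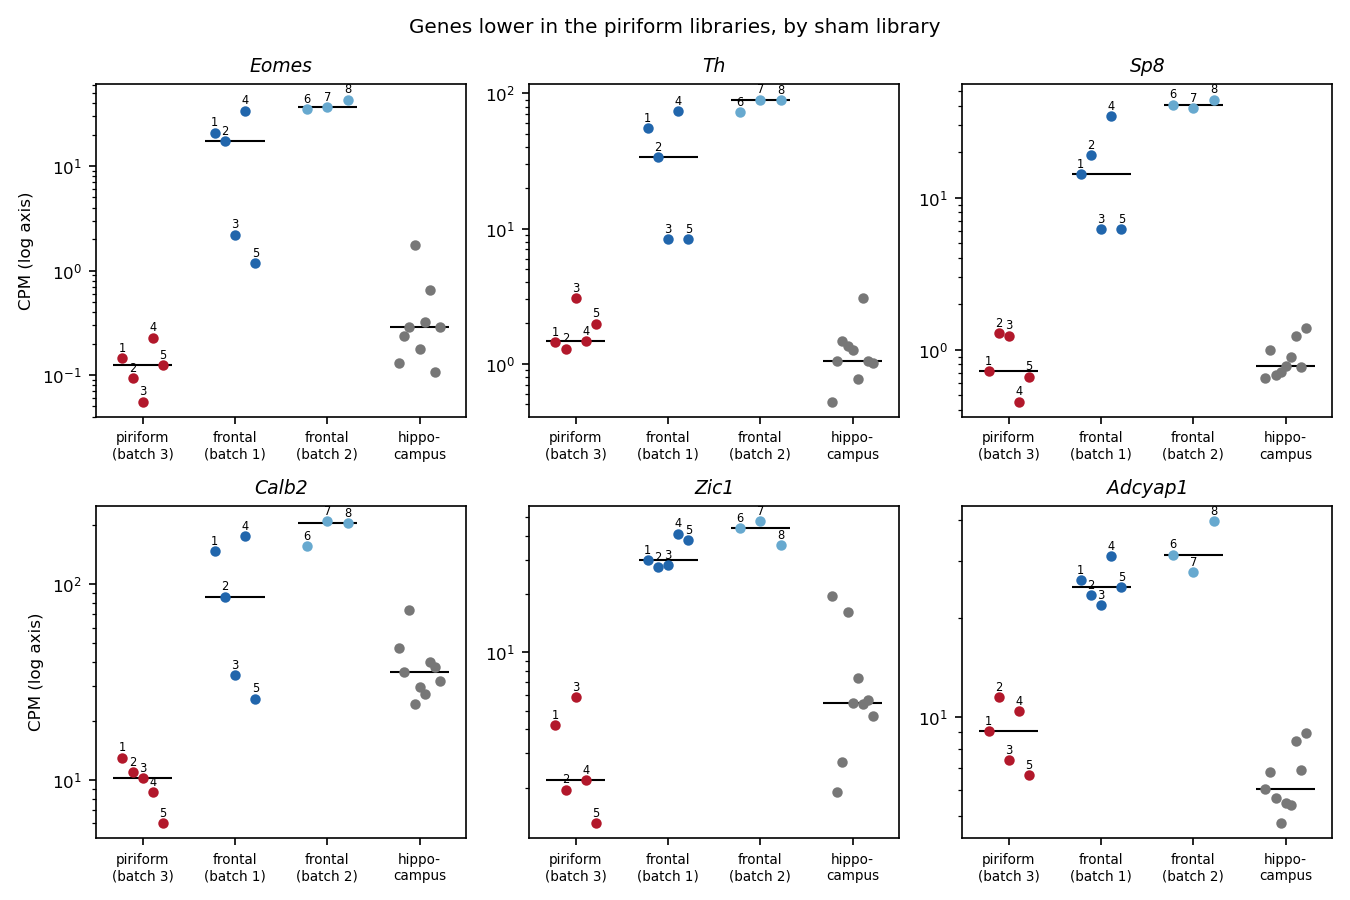
Level (CPM, log axis) of 6 genes called lower in the piriform libraries, 1 point per sham library with its replicate number and a line at the median, in piriform, frontal batch 1, frontal batch 2 and hippocampal libraries. Frontal replicates 3 and 5 were the lowest frontal libraries for Eomes, Th, Sp8 and Calb2, and lay among the others for Zic1 and, in replicate 5, for Adcyap1.

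For another group of lower genes, frontal replicates 3 and 5 lay close to the other frontal libraries, although replicate 3 was the lowest of them for Adcyap1, Scg2, Abi3bp and Meis2. Zic1, a zinc-finger transcription factor of the septum, medial forebrain and bulb, had one of the smallest p-values of any named gene (ENSMUSG00000032368, chromosome 9, 91358058 to 91365810, minus strand). Piriform replicates 1 to 5 had 4.19, 1.95, 5.87, 2.18 and 1.31 CPM, and the frontal libraries 27.5 to 47.5 CPM with a median of 36.7 CPM. No piriform value came near the lowest frontal one. The log2 fold change was -3.55 ± 0.32 (SE, adjusted p = 4.01e-05), and it was -3.4 against batch 1, -3.77 against batch 2 and -3.39 against frontal replicates 3 and 5 alone.

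Adcyap1 encodes the neuropeptide PACAP. It was at 9.03, 11.5, 7.39, 10.4 and 6.66 CPM in the piriform libraries and at 22 to 39.6 CPM in the frontal libraries (median 27.0 CPM), without overlap. Its log2 fold change was -1.65 ± 0.17 (SE, adjusted p = 0.000126), and -1.37 against frontal replicates 3 and 5 alone. Scg2 encodes secretogranin II, a granin of dense-core vesicles. Its levels of 167, 184, 203, 193 and 180 CPM were below the frontal range of 313 to 539 CPM (median 447 CPM), and the log2 difference was -1.24 ± 0.13 (SE, adjusted p = 0.000169). Against frontal replicates 3 and 5 alone Scg2 was still called, at -0.99 (adjusted p = 0.0432, edgeR).

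Abi3bp, an extracellular matrix protein on the list of piriform genes, was lower in the libraries labelled piriform. Its levels were 3.38, 8.38, 7.05, 7.66 and 5.58 CPM against 17.1 to 73.5 CPM (median 37.0 CPM), and the log2 difference was -2.59 ± 0.34 (SE, adjusted p = 0.000459). Meis2, a homeobox factor of the ventral telencephalon and bulb, was at 51.3, 79.7, 188, 75.2 and 61.1 CPM against 223 to 385 CPM. The piriform library with 188 CPM was replicate 3, which also held the striatal genes. Meis2 had a log2 difference of -1.75 ± 0.27 (SE, adjusted p = 0.00142), and of -2.06 without piriform replicates 1 and 3.

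Of 14 measured genes of the amygdala and ventral pallium, 6 were called lower and 0 higher (median -0.42), beside 4.28% and 4.51% of all genes. The called members were Meis2, Meis1, Tshz1, Etv1, Rspo2 and Rspo3, which are transcription factors and R-spondin ligands of the Wnt pathway. Tshz1 was at 19.7 to 36.9 CPM in the piriform libraries and 39.6 to 117 CPM in the frontal libraries, the lowest frontal values again being those of replicates 3 and 5. Without piriform replicate 1, 4 of the members were called lower, and Rspo2 was not (adjusted p = 0.0591, edgeR).

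Most called markers of GABAergic interneurons were lower in the piriform libraries. Of 18 genes on the list, 10 were called lower and 1 higher, with a median log2 fold change of -0.66, and 7 were lower and 1 higher without piriform replicate 1. Over all genes tested, 4.28% were called lower and 4.51% higher. Against batch 1 alone 4 were lower and 0 higher, beside 302 lower and 422 higher of all 19832 genes. Against batch 2 alone 7 were lower and 4 higher, beside 966 lower and 601 higher of all 20860 genes. In burned mice 5 were called lower and 1 higher, beside 5.21% and 9.92% of all genes. In excised mice 1 was called lower and 0 higher, beside 0.837% and 1.26% of all genes. Gad1, which makes GABA from glutamate, was at 180, 229, 296, 249 and 255 CPM in the piriform libraries and at 373 to 772 CPM in the frontal libraries (median 542 CPM). The groups did not overlap, and the log2 fold change was -1.26 ± 0.2 (SE, adjusted p = 0.00155). Gad2, the second GABA-making enzyme, was at 64.6 to 161 CPM against 159 to 331 CPM, overlapping through piriform replicate 3. Slc32a1, the vesicular GABA transporter, had a log2 difference of -0.78 (adjusted p = 0.0247, edgeR). Bulb granule and periglomerular cells and striatal projection neurons are GABAergic too, and their part in this list was not tested. The summed level of bulb genes was 81.5 to 114 CPM in the piriform and 162 to 804 CPM in the frontal libraries. Striatal genes summed to 347 to 2640 CPM in the piriform libraries, highest in replicate 3. They summed to 334 to 2490 CPM in the frontal libraries, highest in replicate 5. In frontal replicates 1 to 8 Gad1 was at 439, 447, 373, 637, 442, 760, 771 and 772 CPM. Gad2 was at 159, 200, 242, 240, 331, 231, 260 and 221 CPM in the same order. Their relation to the bulb and striatal sums was not tested.

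Among markers of single interneuron classes Pvalb was the 1 called higher, and several were called lower. Ndnf, a marker of layer 1 neurogliaform cells, was at 5.87, 4.6, 7.16, 3.07 and 1.6 CPM against 13.8 to 44.4 CPM (median 32.3 CPM), a log2 difference of -2.79 ± 0.37 (SE, adjusted p = 0.000586). Reln, an extracellular glycoprotein of layer 1 and of semilunar cells, was at 34.2, 47.8, 65.5, 44.5 and 37.5 CPM against 58.2 to 116 CPM, with overlap and a log2 difference of -0.82 ± 0.19 (SE, adjusted p = 0.014). Pvalb, the calcium-binding protein of fast-spiking basket cells, was higher at 54.2, 45.5, 49.2, 61.4 and 95.6 CPM against 12.7 to 48.7 CPM (median 24.4 CPM). Only frontal replicate 1 reached the piriform range, and the log2 fold change was 1.14 ± 0.26 (SE, adjusted p = 0.0137). Adarb2, Htr3a, Nos1 and Vip were called lower too, with log2 fold changes of -0.8, -0.72, -0.6 and -0.36. Sst, Npy, Cck and Lhx6, markers of other interneuron classes, were not called, with log2 fold changes of 0.04, 0.16, -0.06 and 0.18.

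Among protein-coding genes with a mean of at least 5 CPM in the higher region that were called against each frontal batch and without piriform replicate 1, and whose groups did not overlap, the largest higher differences were those of Tspan11, Gm765, Ntn5, Endou and Igfn1. At that level Ttr, C1ql2, Lct and Robo3 had larger called differences with all libraries, but lost the call in at least 1 of these checks. Tspan11, a tetraspanin membrane protein (ENSMUSG00000030351, chromosome 6, 127887589 to 127953977, plus strand), was at 7.97, 13.0, 10.3, 19.5 and 27.2 CPM in the piriform libraries. The frontal libraries had 1.81 to 4.27 CPM (median 2.91 CPM) and the sham hippocampus 0.568 to 2.26 CPM. Piriform replicates 4 and 5 were the highest. The log2 fold change was 2.35 ± 0.26 (SE, adjusted p = 0.000218), and 2.51 without piriform replicate 1.

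Igfn1, an immunoglobulin and fibronectin domain protein (ENSMUSG00000051985, chromosome 1, 135953578 to 136006342, minus strand), was at 44.5, 64.0, 48.4, 77.4 and 102 CPM. Its frontal range was 10.4 to 24.5 CPM (median 15.4 CPM), and its hippocampal range 3.04 to 14.8 CPM. Between piriform and frontal libraries the log2 difference was 2.04 ± 0.22 (SE, adjusted p = 0.000166). Rspo1, a Wnt-enhancing R-spondin, was at 16.2, 22.3, 21.9, 31.5 and 44.3 CPM against 3.89 to 8.95 CPM (median 7.81 CPM). It had a log2 difference of 1.91 ± 0.22 (SE, adjusted p = 0.000251). Piriform replicate 1 was the lowest and replicate 5 the highest piriform library for Tspan11, Igfn1 and Rspo1.

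Ntn5 encodes a member of the netrin family of guidance proteins. It was at 9.77, 10.2, 8.79, 9.96 and 17.9 CPM in the piriform libraries and at 0.948 to 3.04 CPM in the frontal libraries, but at 4.97 to 9.86 CPM in the hippocampus. Its log2 fold change was 2.32 ± 0.24 (SE, adjusted p = 0.000145). Endou, a poly(U)-specific endoribonuclease, was at 3.47, 5.05, 5.37, 7.8 and 4.39 CPM against 0.807 to 1.54 CPM, and had the smallest adjusted p among the named genes (log2 fold change 2.25 ± 0.2 SE, adjusted p = 3.93e-05). Gm765, Tmem215 and Col26a1 had log2 fold changes of 2.33, 1.78 and 1.48, and Catsperz and Barx2 of 1.79 and 1.62. The naming rule required that the groups not overlap, so their separation in these genes is no result. Hippocampal levels of Scnn1a, a subunit of the epithelial sodium channel used as a layer 4 marker, were 8.45 to 12.6 CPM. These lay beside 6.02 to 14.4 CPM in the piriform and 1.98 to 4.18 CPM in the frontal libraries (log2 fold change 1.71 ± 0.24 SE, adjusted p = 0.00086).

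**Figure D3:**
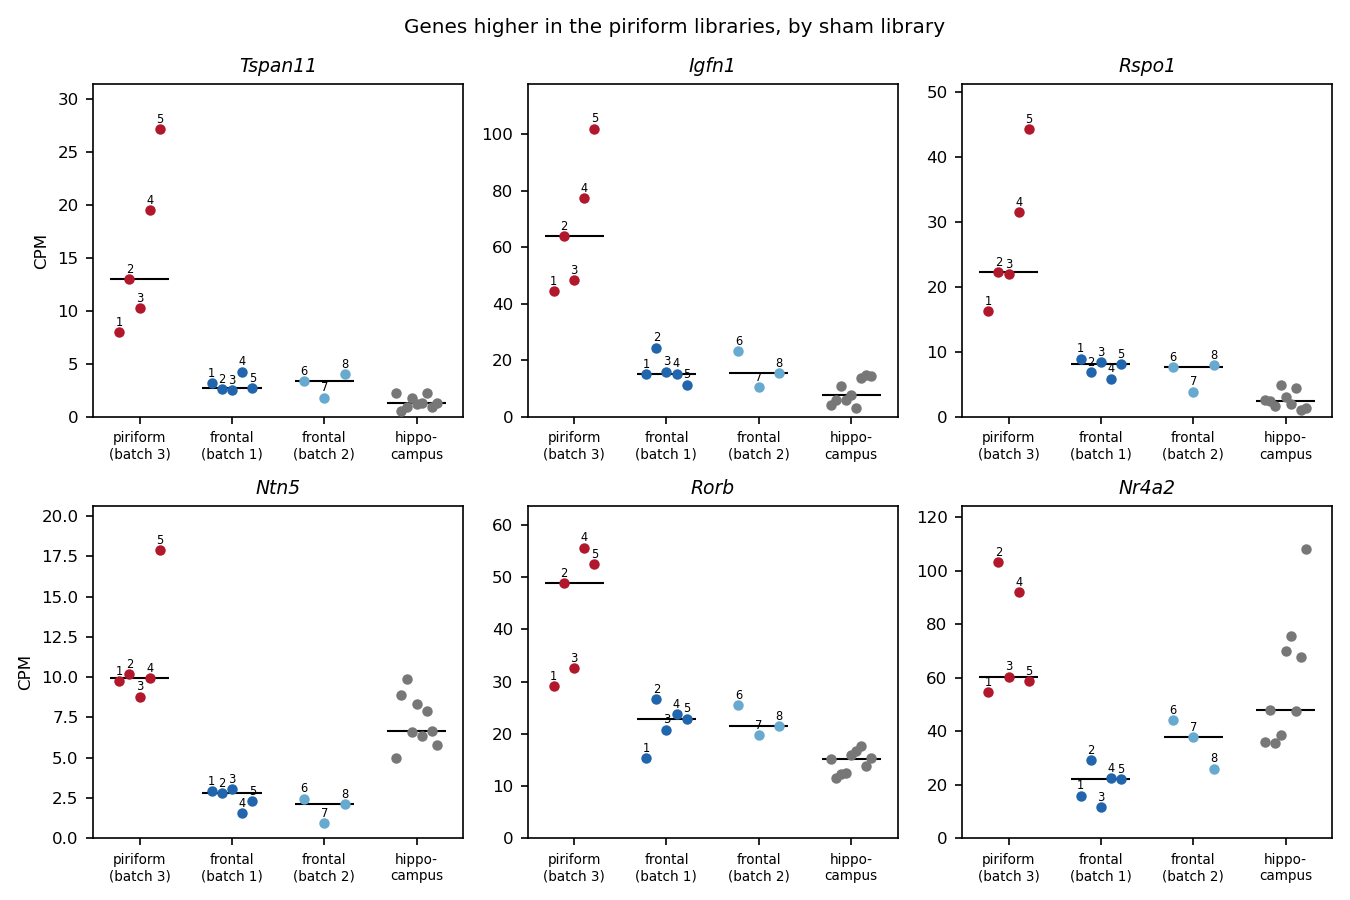
Level (CPM, linear axis from 0) of 6 genes called higher in the piriform libraries, 1 point per sham library with its replicate number and a line at the median. All piriform points lie above all frontal points, which the naming rule required of all these genes but Rorb. Hippocampal libraries reach the piriform range for Ntn5 (4.97 to 9.86 CPM) and Nr4a2 (35.5 to 108 CPM).

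Several upper-layer neocortical genes were higher in the piriform libraries. Of the 15 genes of neocortical upper layers 2 to 4, 6 were called higher and 1 lower, beside 4.51% and 4.28% of all genes. The median log2 fold change was 0.54, and without piriform replicate 1 the counts were 7 and 0. Rorb, the nuclear receptor of layer 4, was at 29.1, 48.8, 32.5, 55.6 and 52.4 CPM against 15.3 to 26.7 CPM (median 22.2 CPM). The groups did not overlap, and the log2 fold change was 0.99 ± 0.16 (SE, adjusted p = 0.00198). Cux2, a homeobox factor of layers 2 to 4, was at 106, 182, 137, 166 and 227 CPM against 69.9 to 126 CPM, with piriform replicate 1 inside the frontal range (log2 fold change 0.77 ± 0.16 SE, adjusted p = 0.00927). Lamp5, a vesicle protein of upper layers, was at 201 to 464 CPM against 115 to 258 CPM (log2 fold change 0.77, adjusted p = 0.0205, edgeR). The called member that was lower was Lmo4, a LIM-domain cofactor, at -0.41 (adjusted p = 0.0402, edgeR).

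Deep-layer genes were mixed. Of 15 members of neocortical deep layers 5 and 6, 1 was called higher and 3 lower (median -0.43), beside 4.51% and 4.28% of all genes. Without piriform replicate 1 the counts were 1 and 2. Syt6, a synaptotagmin of layer 6 and other cells, was at 7.25, 15.8, 42.8, 21.9 and 21.8 CPM against 49.3 to 111 CPM (log2 fold change -1.77 ± 0.33 SE, adjusted p = 0.00438), without overlap. Etv1, an ETS factor of layer 5 that bulb interneurons also express, was at 28.7 to 42.1 CPM against 41.5 to 94.3 CPM (log2 fold change -0.87, adjusted p = 0.00575, edgeR). Deptor, an inhibitor of the mTOR kinase, was the third lower gene, at -0.66, and was not called without piriform replicate 1 (-0.54, adjusted p = 0.0903, edgeR). Hs3st4, a heparan sulfate sulfotransferase of layer 6, was higher at 58.5 to 69.0 CPM against 33.8 to 56.8 CPM (log2 fold change 0.56). The layer 5 and 6 regulators Fezf2, Bcl11b and Tbr1 were not called, with log2 fold changes of -0.41, -0.52 and 0.32.

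Most called genes of the subplate, claustrum and endopiriform nucleus were higher. The endopiriform nucleus lies beneath the piriform cortex. Of 13 measured members, 7 were called higher and 1 lower (median 0.57), beside 4.51% and 4.28% of all genes. Without piriform replicate 1 the counts were 6 and 1. Against frontal batch 1 alone 2 were higher and 0 lower, beside 422 and 302 of all 19832 genes. Against batch 2 alone the counts were 5 and 2, beside 601 and 966 of 20860. Nr4a2 (Nurr1), the orphan nuclear receptor that marks these cells, was at 54.5, 103, 60.4, 92.0 and 58.7 CPM against 11.7 to 44.1 CPM (median 24.3 CPM). The log2 difference was 1.5 ± 0.26 (SE, adjusted p = 0.0032), and 2.15 against frontal replicates 3 and 5 alone. Nr4a2 is also on the list of immediate early genes, where it was the 1 called member of 18 (median -0.35). Ntng2, a netrin-G adhesion protein of the claustrum and deep layers, was at 57.1, 72.8, 48.0, 45.4 and 48.5 CPM against 19.4 to 32.4 CPM (log2 fold change 1.17 ± 0.14 SE, adjusted p = 0.000251). Gnb4, a G-protein subunit used as a claustrum marker, was at 38.6 to 62.9 CPM against 28.1 to 38.4 CPM with the groups just separate (log2 fold change 0.61, adjusted p = 0.0105, edgeR). Lxn, Cplx3, Gng2 and Car3 were called higher too, at 0.57, 0.77, 0.42 and 0.96, and Nxph4, a subplate neurexophilin, was called lower at -1.31.

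**Figure D4:**
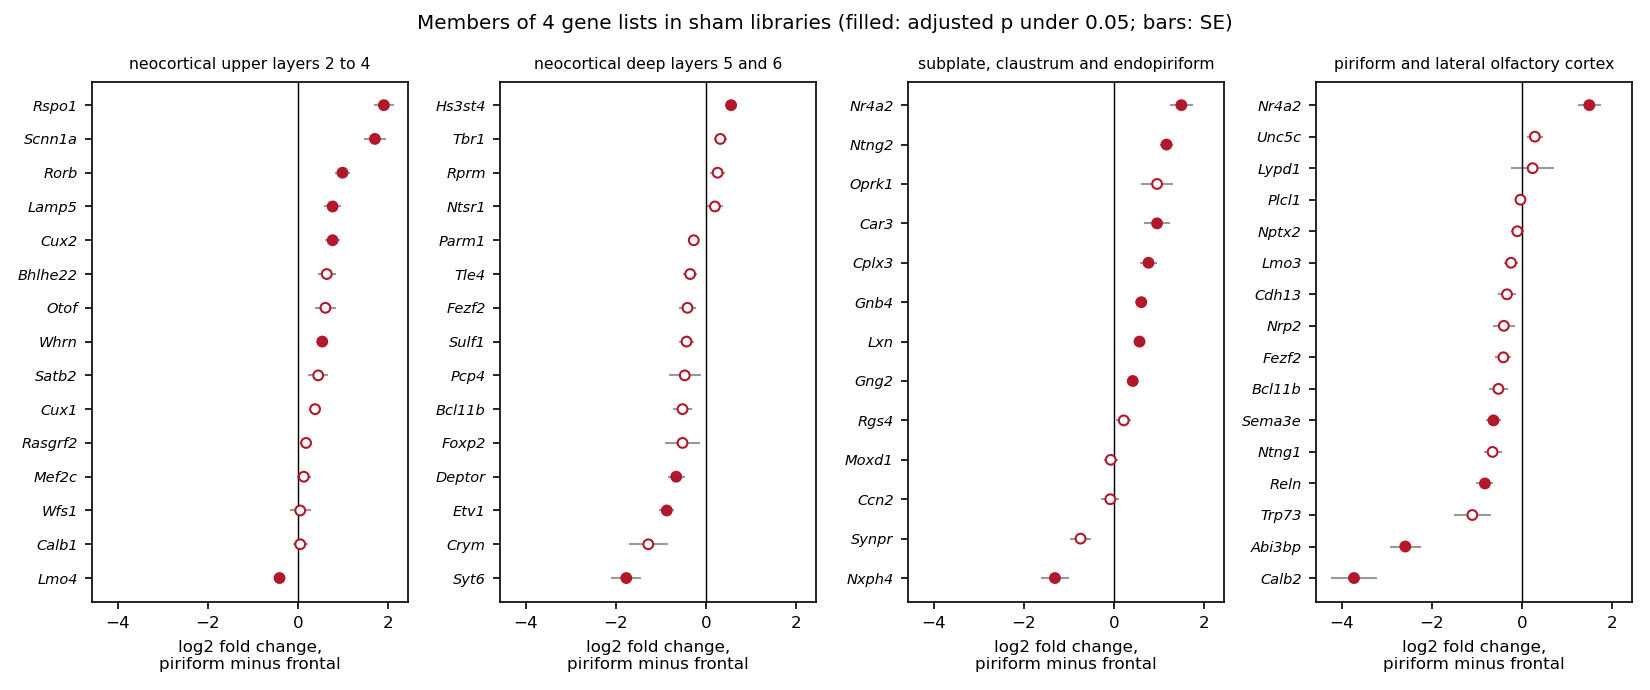
Log2 fold change (piriform minus frontal, bars are SE, filled points have an adjusted p under 0.05) for the measured members of 4 gene lists in the sham libraries. The list medians were 0.54 for upper layers, -0.43 for deep layers, 0.57 for subplate, claustrum and endopiriform genes and -0.41 for piriform and lateral olfactory cortex genes.

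Among genes for axon guidance and adhesion, 3 of 23 were called higher and 4 lower (median -0.27), beside 4.51% and 4.28% of all genes. Robo3 had the largest difference on this list. It encodes a divergent Roundabout receptor that in embryos governs midline crossing (ENSMUSG00000032128, chromosome 9, 37415669 to 37433246, minus strand). Its levels were 84.4, 73.2, 35.8, 94.1 and 213 CPM in the piriform libraries, 3.42 to 33.7 CPM in the frontal libraries (median 14.1 CPM) and 8.77 to 41.0 CPM in the hippocampus. Piriform replicate 3, at 35.8 CPM, was just above frontal replicate 6, at 33.7 CPM. The log2 fold change was 2.7 ± 0.46 (SE, adjusted p = 0.00319), 2.75 without piriform replicate 1 (adjusted p = 0.00622, edgeR), and 2.31 against frontal batch 2 alone, where it was not called (adjusted p = 0.0772). Plxnd1, a semaphorin receptor, was at 102, 187, 193, 176 and 183 CPM against 61.4 to 107 CPM (log2 fold change 1.05 ± 0.15 SE, adjusted p = 0.000849), with piriform replicate 1 inside the frontal range. Its ligand Sema3e was lower, at -0.63, and so was Sema3c, at -1.57 ± 0.23 (SE, adjusted p = 0.00104). Unc5d, a netrin receptor of upper-layer neurons, was higher at 0.81, and Robo2 and Epha3 were lower at -0.5 and -0.97.

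Voltage-gated potassium channels moved in both directions. Of 27 genes, 3 were called higher and 6 lower (median 0.15), beside 4.51% and 4.28% of all genes tested. Without piriform replicate 1 the counts were 6 and 6, beside 821 and 812 of all 20913 genes. Against batch 1 alone they were 2 and 2, beside 422 and 302 of 19832. Against batch 2 alone they were 5 and 5, beside 601 and 966 of 20860. The silent subunit Kcns1 was at 28.9, 35.8, 37.8, 42.4 and 62.6 CPM against 9.33 to 21.6 CPM (median 15.2 CPM), without overlap (log2 fold change 1.4 ± 0.19 SE, adjusted p = 0.000586). Kcnq3, an M-current subunit, was higher at 0.59 (adjusted p = 0.0349, edgeR). Lower members were Kcnf1 at -0.85, Kcna5 at -1.98, Kcnd2 at -0.61, Kcna4 at -0.86, Kcnb2 at -0.94 and Kcnd3 at -0.59. Kcna5 was at 8.09 CPM in piriform replicate 3 and at 0.833 to 2.6 CPM in the other piriform libraries, against 8.25 to 19.9 CPM in the frontal libraries.

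Of 22 glutamate receptor genes (median -0.2), 0 were called higher and 4 lower, beside 4.51% and 4.28% of all genes tested. Among the lower ones were the metabotropic receptors Grm8 and Grm4 and the kainate receptor subunit Grik3, at -1.04, -0.79 and -0.52. Grm8 was at 6.23, 8.22, 11.8, 8.78 and 9.02 CPM against 13.8 to 23.2 CPM (adjusted p = 0.00123, edgeR), without overlap. Of 14 GABA-A receptor subunits (median -0.23), Gabrg3 was lower at -0.67 and Gabrd, the subunit of extrasynaptic receptors, was higher at 0.48. Of 31 neuropeptide and monoamine receptors, 1 was called higher and 3 lower (median -0.15), beside the same 4.51% and 4.28% of all genes. The higher one was the somatostatin receptor Sstr2, at 28.0, 45.0, 28.9, 45.5 and 35.7 CPM against 11.8 to 22.2 CPM (log2 fold change 1.04 ± 0.16 SE, adjusted p = 0.00134), without overlap. The lower ones were Adra1a at -0.81, Sstr4 at -0.55 and the serotonin receptor Htr2a at -0.7. Without piriform replicate 1 Sstr4 (adjusted p = 0.0668, edgeR) and Htr2a (adjusted p = 0.0804, edgeR) were not called.

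Of 20 measured neuropeptide genes, 0 were called higher and 5 lower (median -0.43), beside 4.51% and 4.28% of all genes tested. Beside Adcyap1 and Scg2 the lower genes were Gal (galanin), Trh (thyrotropin-releasing hormone) and Vip, at -5.02, -3.34 and -0.36. Trh was at 0.397 to 1.2 CPM in 4 piriform libraries and 9.16 CPM in replicate 2, against 2.42 to 43.6 CPM in the frontal libraries. Its lowest frontal values were in replicates 5 and 3, against which alone its log2 fold change was -0.26 (adjusted p = 0.941, edgeR). Without piriform replicate 1 neither Trh (adjusted p = 0.0736, edgeR) nor Vip (adjusted p = 0.0956, edgeR) was called. Against frontal batch 2 alone, 2 of the neuropeptide genes were called higher and 5 lower, beside 601 and 966 of all 20860 genes.

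Differences of hippocampal genes rested on piriform replicate 1. Of 16 measured hippocampal genes, 2 were called higher with all libraries (median 0.28), and 0 higher and 2 lower without that replicate (median -0.17). Over all genes, 4.51% were called higher with all libraries. Without that replicate 821 were called higher and 812 lower of all 20913 genes. C1ql2, a secreted synaptic organiser of dentate granule cells, was at 102 CPM in piriform replicate 1 and at 0.708 to 2.5 CPM in the other piriform libraries. The frontal range was 0.526 to 1.93 CPM and the hippocampal range 72.5 to 137 CPM. Its log2 fold change went from 4.33 (adjusted p = 0.0256, edgeR) to 0.23 (adjusted p = 0.788) without the replicate. Lct, the lactase gene, also a dentate marker, was at 50.7 CPM in replicate 1 and 0.879 to 1.73 CPM in the others, against 0.608 to 1.59 CPM in the frontal libraries. It went from 3.4 (adjusted p = 0.03, edgeR) to 0.34 (adjusted p = 0.538). Prox1, the granule cell transcription factor, was at 44.4 CPM there and at 6.64 to 8.24 CPM in the others, and was not called. Ttr (transthyretin), the main product of the choroid plexus, was at 189 CPM in replicate 1 and at 0.854 to 8.06 CPM elsewhere in the piriform libraries. Its log2 fold change went from 5.4 (adjusted p = 0.0203, edgeR) to 1.81 (adjusted p = 0.254).

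None of the 15 striatal genes was called in either direction (median -0.62), beside 4.51% called higher and 4.28% lower over all genes. The median was -1.03 against frontal batch 1 alone, with 0 called. It was 0.67 against batch 2 alone, with 1 of 14 tested genes called higher. With piriform replicates 2, 4 and 5 only, a choice made after the data were seen, it was -2.24 and 4 were called lower. Drd1, the dopamine receptor of the direct pathway, was at 66.2 CPM in piriform replicate 3 and at 6.98 to 12.3 CPM in the other piriform libraries. In the frontal libraries it ran from 5.2 to 80.5 CPM, with 57.9 and 80.5 CPM in replicates 3 and 5, which were the frontal libraries low in bulb genes. Striatal transcripts were therefore high in libraries of both labels (log2 fold change -0.62, adjusted p = 0.662, edgeR).

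Glial and vascular genes were mostly not called, as were most of all genes tested (4.51% called higher and 4.28% lower). Of 16 myelin genes, 14 microglial genes, 14 endothelial genes and 12 genes of pericytes and smooth muscle, 0 were called in either direction, with medians of 0.16, 0.11, -0.31 and -0.06. Of 16 astrocyte genes (median 0.09) 1 was called, the GABA transporter Slc6a11, at 150 to 232 CPM against 176 to 397 CPM (log2 fold change -0.73, adjusted p = 0.0141, edgeR). Of 12 genes of oligodendrocyte precursors (median -0.01), C1ql1 and Lhfpl3 were lower, at -0.57 and -0.79, Lhfpl3 not without piriform replicate 1 (adjusted p = 0.0835, edgeR). Gfap and Mbp were not called, and were highest in piriform replicate 1, at 293 and 2860 CPM. Of 15 meningeal and fibroblast genes (median -0.93), Col1a2 and Islr were called lower, at -1.25 and -1.93, and 7 were lower without piriform replicate 1. Islr, which is on the bulb list too, was at 4.61 to 20.4 CPM against 13.9 to 58.7 CPM. Aqp1, the water channel of the choroid plexus and of olfactory ensheathing glia, was at 0.333 to 2.04 CPM against 0.56 to 12.7 CPM (log2 fold change -3.31, adjusted p = 0.0163, edgeR), with the lowest frontal values in replicates 5 and 3.

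Genes used as markers of other areas or classes were read in all libraries, beside 4.51% called higher and 4.28% lower over all genes tested. Of 12 measured genes of the thalamus and habenula (median -0.12), Rora was called higher at 0.71 and Zic1 and Calb2 lower. The vesicular glutamate transporter Slc17a6, which the thalamus uses, was at 23.3, 25.4, 13.2, 32.9 and 27.7 CPM against 9.38 to 22 CPM and was not called (log2 fold change 0.67 ± 0.22 SE, adjusted p = 0.0688), and Tcf7l2, a thalamic factor, was at -0.25. Nr2f2 (COUP-TFII), a nuclear receptor of caudal and ventral forebrain, was at 9.34, 18.2, 19.0, 13.5 and 6.5 CPM against 3.63 to 10.6 CPM, with overlap and no call (log2 fold change 0.91 ± 0.28 SE, adjusted p = 0.0584). Lmo3, a LIM-domain gene on the piriform list, was at 56.7 to 113 CPM against 93.8 to 134 CPM and was not called (log2 fold change -0.24). Of 15 measured genes of the choroid plexus and ependyma (median 0.09), Ttr was called higher and Aqp1 lower. Without piriform replicate 1, 0 of them were higher and 3 lower (median -0.69). Of 8 measured blood genes (median 0.97, and 0.19 without piriform replicate 1), 2 were called lower, among them Igkc. The globin genes Hbb-bs and Hba-a1, both at 1.05, were not called. Xist, the 1 measured gene of 6 on the sex-linked list, was at 155 to 280 CPM in the piriform and 49.3 to 332 CPM in the frontal libraries and was not called (log2 fold change 0.16). The whole list summed to 155 to 280 and 49.4 to 332 CPM. Almost no transcripts of its Y-linked members Ddx3y, Uty, Kdm5d and Eif2s3y were therefore read in these libraries.

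Stress and time-of-day genes were called in both directions, beside 4.51% called higher and 4.28% lower over all genes tested. Of 20 heat shock and unfolded protein response genes (median 0.05), Herpud1 was higher at 0.34 and Dnajb9 lower at -0.42, the latter not called without piriform replicate 1 (adjusted p = 0.0903, edgeR). Of 18 clock genes (median 0.1), 2 were called higher and 1 lower, and 0 in either direction against frontal batch 1 alone. Nr1d1 (Rev-erb alpha), a repressor of the clock, was at 88.2, 104, 100, 114 and 136 CPM against 66.5 to 85.4 CPM, without overlap (log2 fold change 0.49 ± 0.099 SE, adjusted p = 0.00772). Ciart was higher at 0.7 and Cry1 lower at -0.46. The core clock genes Arntl and Clock were not called, and the labels used here do not give the time of day of collection. None of the 13 mitochondrially encoded genes was called (median 0.62).

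The same region difference was examined in mice with a burn, in 5 piriform and 10 frontal libraries, and with an excision, in 4 and 10 libraries. The titles of 2 frontal burn libraries name sham and that of 1 frontal excision library names burn, against their treatment fields. Without them 3213 genes were called in burned mice in all, against 3174 with them, and 334 in excised mice, against 440. These comparisons share no library with that in sham mice, but their regions fall into the same batches. In burned mice 2081 genes were called higher in the piriform libraries (9.92% of 20980) and 1093 lower (5.21%). In excised mice 264 were called higher (1.26% of 21020) and 176 lower (0.837%). Of the 923 genes that were higher in sham mice and tested in burned mice, 920 had the same sign there and 702 (76.1%) were also called. Of 869 lower genes, 859 had the same sign and 406 (46.7%) were also called. Over all 20373 genes tested in both, 78.7% had the same sign and 15.0% were called with it. In excised mice, 879 of 923 higher genes and 853 of 875 lower genes had the same sign, beside 69.4% of all 20400 genes tested in both. The called ones among them were 142 (15.4%) and 98 (11.2%), beside 2.11% of all genes called with the same sign.

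The 24 genes with the largest differences under the same rule, 12 in each direction, had the same sign in burned and in excised mice, with wide errors for the lower genes. All were called in burned mice. In excised mice Th and Igfbpl1 were the only lower genes called. Every higher gene was called there except Catsperz (log2 fold change 0.66, adjusted p = 0.541, edgeR). Of the genes outside the rule, Lct, at 3.4 in sham mice, was at -0.06 in burned and -0.03 in excised mice, and C1ql2, at 4.33, was at 0.26 and 1.05. Neither gene was called in burned or in excised mice. Tspan11 had log2 fold changes of 2.35 in sham, 2.2 in burned and 1.68 in excised mice, and was called in each. Zic1 was at -3.55, -2.54 and -2.97, and Adcyap1 at -1.65, -1.83 and -1.62, called in each. Eomes was at -7.5 ± 1.03, -8.0 ± 1.7 and -8.21 ± 2.31 (SE) and was not called in excised mice (adjusted p = 0.0919, edgeR). Robo3 was at 2.7, 3.05 and 1.24, and was not called in excised mice (adjusted p = 0.211, edgeR). Nr1d1 had log2 fold changes of 0.07 in burned and 0.08 in excised mice and was called in neither. The region difference was tested for a change between burned and sham mice, and 0 of 22749 genes were called (0.0%) by edgeR's quasi-likelihood test, with 745 at an unadjusted p under 0.05. The change between excised and sham mice was not tested.

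**Figure D5:**
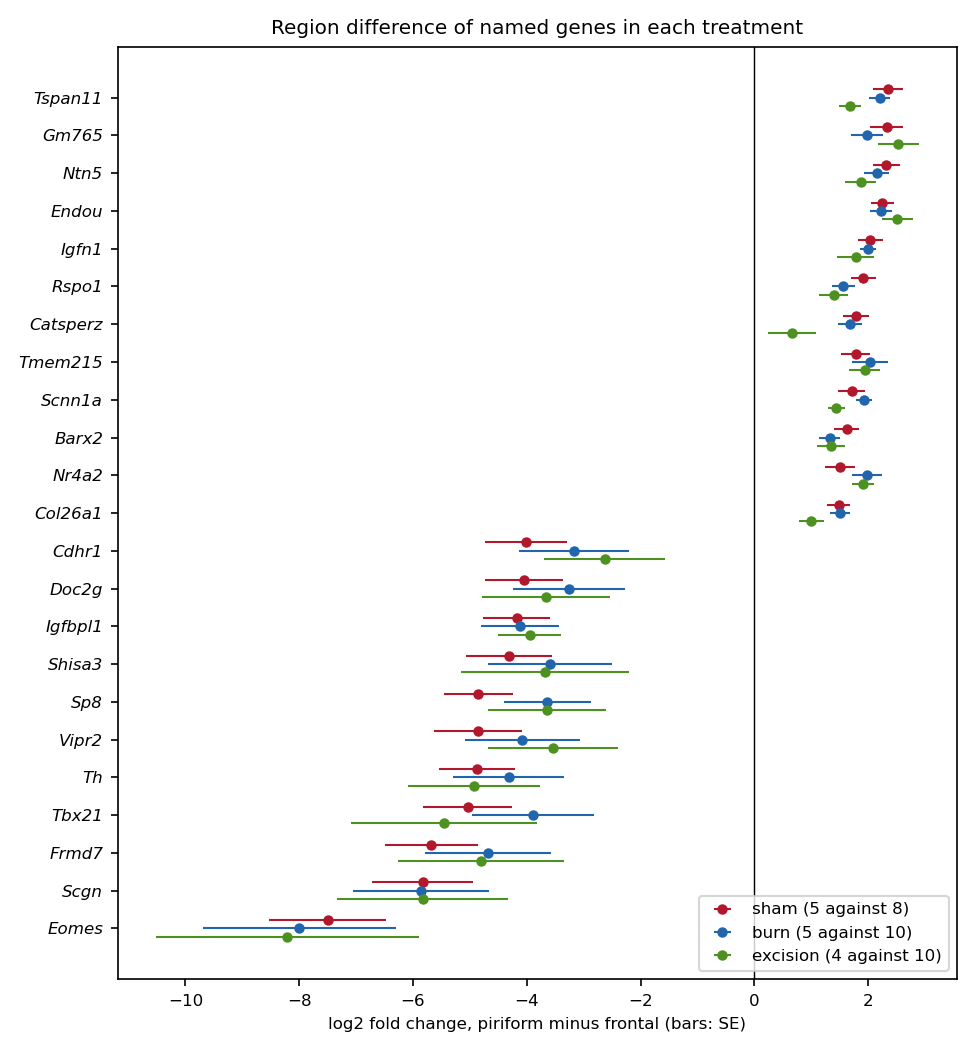
Log2 fold change (piriform minus frontal, bars are SE) of 23 named genes in sham, burned and excised mice, 1 point per gene and treatment. All 3 points of each gene lie on the same side of 0, and the bars are longer for the genes below 0, from Cdhr1 to Eomes, than for those above it.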

How the data were processed

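RNA was measured by bulk sequencing in single-end runs. The deposited values are whole-number counts per Ensembl gene, made by the authors. Per the submitters' processing notes, FastQC 0.11.3, fastp, STAR, DESeq2 1.24.0 and GRCm38 were used; how reads were counted, on which strand and with which annotation was not given in the sources used here, so reads of overlapping or antisense genes cannot be separated. Symbols and positions come from GENCODE M21, and identifiers without a match held 1.04% of counts in the 13 sham cortex libraries.

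Groups follow the treatment and tissue fields. Genes passing filterByExpr were tested with edgeR 4.0.16 (TMM, quasi-likelihood F test, R 4.3.3), with Benjamini-Hochberg adjustment over all genes tested. Alternatives were the DESeq2 1.42.0 Wald test, size factors of DESeq2, testing without a count filter, a test against a 1.5-fold change, a block on title numbers, a mitochondrial covariate, all 42 cortex libraries, and subsets of libraries. Comparisons were made within 1 table, and no pair of libraries within either sham group was identical. The pipeline was tested on simulated data.

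Genes were named by rule: the 12 largest called, protein-coding differences each way with a symbol, at least 5 CPM in the higher region, no overlap between groups and a call against each frontal batch and without piriform replicate 1; up to 5 called members of each of 30 gene lists by smallest p; and 22 fixed genes. Some genes that the rule names are not reported here. Other list members named were chosen after their values were seen. The libraries, lists and rule were chosen with earlier results of these data known.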

Additional observations from a re-analysis of the deposited data

Results flagged for a closer look

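In groups of 5 and 8 libraries, 262 levels of named genes and gene lists were examined for a library far from the rest of its group, and 29 were found. Chance gives about 1 in 20 such values per group, and levels of genes of 1 tissue move together, so these are not separate findings.

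Piriform replicate 1 held 13 of them. It had the highest C1ql2 (102 CPM), Lct (50.7 CPM), Prox1 (44.4 CPM) and Ttr (189 CPM) of the piriform libraries, genes of the dentate gyrus and choroid plexus. Its summed levels of hippocampal principal neurons (1090 CPM), choroid plexus and ependyma (434 CPM) and blood (1760 CPM, against 481 to 821 CPM in the others) were the highest too. It was also highest in Scgn (1.05 CPM), Doc2g (3.22 CPM), Aqp1 (2.04 CPM) and Igkc (0.235 CPM), and lowest in Plxnd1 (102 CPM) and in the summed clock genes (1280 CPM, against 1520 to 1600 CPM).

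Piriform replicate 3 was highest in the summed striatal genes (2640 CPM), with Drd1 at 66.2 CPM, Meis2 at 188 CPM, Meis1 at 6.72 CPM and Kcna5 at 8.09 CPM. Its summed neuropeptides (1650 CPM) and neuropeptide and monoamine receptors (1050 CPM) were the highest of the piriform libraries as well. Several neuropeptide and receptor genes of these lists are striatal.

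Piriform replicate 5, which had the lowest mitochondrial share of its group, was highest in Ntn5 (17.9 CPM) and Ciart (16.5 CPM) and lowest in Etv1 (28.7 CPM) and Tcf7l2 (2.5 CPM). Piriform replicate 2 was highest in Trh (9.16 CPM) and Ms4a15 (0.0157 CPM, a count of 1).

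Among the frontal libraries, replicate 2 had the highest summed endothelial level (457 CPM, against 157 to 224 CPM), replicate 4 the highest Col1a2 (30.5 CPM, against 11.2 to 15.7 CPM) and replicate 1 the lowest summed axon guidance level (749 CPM, against 897 to 1030 CPM).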

How the results depend on the processing

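Against 1807 genes called between the sham regions, the fit with size factors of DESeq2 called 1718, that without a count filter 1368, that with the mitochondrial covariate 1925 and the DESeq2 Wald test 2583. The test against a 1.5-fold change called 215, frontal batch 1 alone 724, batch 2 alone 1567 and all 42 cortex libraries with treatment 7009. Leaving out each library in turn gave 952 to 2360, and leaving out the piriform library with a disagreeing title gave 1193; without frontal replicate 4 or 8 or piriform replicate 4 the counts were 1174, 1189 and 1188. Correlations of same-numbered libraries had both signs (-0.302 to 0.174). They cannot show whether libraries share an animal, since frontal replicates 1 and 5, both of batch 1, carry the same number. With the replicate block, which also left out the piriform library with a disagreeing title, 397 genes were called (191 higher and 206 lower). The count without that library and without the block was 1193. Chosen after seeing the data, frontal replicates 3 and 5 as the only frontal libraries gave 17 calls, and 33 without piriform replicate 1 as well, where fewer libraries were compared; piriform replicates 2, 4 and 5 gave 2027. Under these choices C1ql2 changed sign (-0.27 with piriform replicates 2, 4 and 5, and -0.12 in the smallest set), as did Trh (0.01 in the smallest set) and Gfap (-0.72 with piriform replicates 2, 4 and 5, adjusted p = 0.0389, edgeR). The frontal batches differed at 0 genes in every edgeR setting run and at 318 with DESeq2, and the excised mice had 986 calls with DESeq2 against 440 with edgeR. The causes of these changes were not tested. At 46.8 M counts or more per library, depth limited the genes with very few counts, such as Gal and Ms4a15 in the piriform libraries. Gal was at 0 to 0.167 CPM there, and Ms4a15 at 0 to 0.0157 CPM.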
